A study of Mus musculus with 12 samples.

Results

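ATF4 is the transcription factor through which cells raise amino acid synthesis, amino acid uptake and tRNA charging under stress. Described here are 40 mouse genes, most of them known ATF4 targets, in prostate organoids, which are 3-dimensional cultures of prostate cells. They comprise 10 enzymes of serine, one-carbon and amino acid synthesis, 7 amino acid transporters, 11 stress factors and stress targets including Atf4 itself, and 12 cytosolic aminoacyl-tRNA synthetases. The genes were listed by name from 43243 gene names, with earlier results of these data known, so the choice was not blind to them. All 40 were among the 13600 genes kept for testing because 6 or more of the 12 libraries had an RPKM of 1 or higher. RPKM is the number of reads on a gene relative to its length and to the library's mapped reads.

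The study compared 6 organoid libraries labelled SPOPmut with 6 labelled SPOPwt, numbered S0 to S5 in both groups, and the labels speak of pairs of mutant and control. SPOP selects substrates for a ubiquitin ligase and is mutated in human prostate cancer. Of the pairs, 5 came from model A, in which cells received the tamoxifen-dependent recombinase CreERT2 by virus and were selected with puromycin, and 1 came from model B, in which a TMPRSS2-CreERT2 transgene supplied it. The label of a library does not say which model it is. Cultures grew in Matrigel with 5 to 50 ng/ml EGF, and 1 uM 4-Hydroxytamoxifen was given overnight to activate the recombinase. The protocol names GFP sorting, or sham sorting for control cells, so a difference between the groups cannot be told apart from an effect of that selection. A non-inducible line is also described, from mice with Cre under a probasin promoter and the R26F133V allele, set against Cre-negative mice. The labels give no age and do not say whether the pairs are separate animals or cultures, so p-values measure the spread between these pairs only.

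When amino acids run short, the endoplasmic reticulum is loaded with unfolded protein, haem is lacking or double-stranded RNA appears, 1 of 4 kinases phosphorylates the translation initiation factor eIF2alpha. Most translation then slows, while translation of Atf4 mRNA increases. ATF4 protein pairs with C/EBP factors and binds composite elements near its targets, so its activity can change while the level of its mRNA does not. Its targets supply serine, glycine, asparagine, alanine and proline, import amino acids and charge tRNAs, and some of them promote recovery or cell death when stress persists. Prostate epithelium secretes large amounts of protein and citrate.

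Promoter windows of RefSeq on GRCm38.p6 were at hand for 34 of the 40 genes, and the 250 bases before each start were searched for the ATF4 and C/EBP composite motif TGATGNAA on both strands (TTNCATCA on the other). It was present in 8 of 34 windows, or 23.5%, against 954 of 27025 windows of all genes, or 3.53%. By list, it was present in 2 of 10 synthesis genes, 1 of 5 transporters, 2 of 11 stress genes and 3 of 8 synthetases. The stretches around the matches are shown for 7 of these 8 genes, which share a feature that no expression value was used to find. Capitals mark the motif, and each stretch is written 5′ to 3′ on the strand of its gene.
Asns: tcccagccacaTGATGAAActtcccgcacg
Pycr1: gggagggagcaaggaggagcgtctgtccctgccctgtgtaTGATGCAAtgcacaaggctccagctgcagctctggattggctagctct
Slc7a11: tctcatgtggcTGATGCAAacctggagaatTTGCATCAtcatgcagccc
Nupr1: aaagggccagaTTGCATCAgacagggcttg
Chac1: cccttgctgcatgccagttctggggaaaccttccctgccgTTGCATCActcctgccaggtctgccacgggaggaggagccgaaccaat
Gars: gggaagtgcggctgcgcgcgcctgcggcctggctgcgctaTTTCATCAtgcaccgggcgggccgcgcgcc
Tars: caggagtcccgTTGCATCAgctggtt

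In order, these stretches lie at chr6:7693214-7693243 (minus strand), chr11:120643804-120643891 (minus), chr3:50443642-50443690 (minus), chr7:126625562-126625591 (minus), chr2:119351009-119351096 (plus), chr6:55037931-55038000 (plus) and chr15:11399659-11399684 (minus). Slc7a11 was the only one of the 8 with 2 matches, and these face each other on opposite strands. The starts are those of RefSeq, and the Asns, Nupr1 and Tars stretches overlap exons annotated in GENCODE M21. A match describes these letters and is not a measured binding site, and its absence from the other 26 windows concerns this window alone.

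Before the members are compared, 2 pairs need to be set apart. In S5 the summed RPKM of 7 epithelial markers was 3924 in the SPOPmut library and 2930 in the SPOPwt library, against 9.46 to 113 in the 10 libraries of S0 to S4, and all 7 markers were higher in S5 than in every other library. Summed mesenchymal markers were 14.9 and 16.0 in the same S5 libraries, against 1485 to 2657 in S0 to S4. Epcam and Krt5, which define epithelium and its basal layer, lay at no more than 1.28 and 0.241 RPKM in S0 to S4. Krt8 and Krt18 were present there, at 1.44 to 21.5 and 6.35 to 89.6 RPKM. Among the mesenchymal markers, Thy1 was at no more than 0.0204 RPKM in all 12 libraries, and Col1a2 at 0.673 to 12.9 in S0 to S4. The marker sums of those 10 libraries thus go against an epithelial identity, though not every single marker does. In S3 and S5 the sum of 6 proliferation genes was low: 50.1 (SPOPmut) and 33.2 (SPOPwt) in S3, and 21.1 and 31.4 in S5, against 156 to 299.7 in the other 8 libraries. Immune and endothelial sums reached 7.70 and 2.02 at most, and the leukocyte gene Ptprc was at or near 0 in all 12 libraries. In bulk samples, fewer cells of a type and less RNA per cell cannot be told apart. Depth was estimated at 28268100 to 40973800 reads, with 13012 to 13885 genes at an RPKM of at least 1. Spop lay at 48.1 to 57.0 RPKM (median 50.5) in SPOPmut and 39.97 to 52.7 (median 45.6) in SPOPwt, and was higher in SPOPmut in 6 of 6 pairs; these values do not separate alleles.

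The first question was whether the 40 genes differ between SPOPmut and SPOPwt organoids. Most were slightly lower in SPOPmut, but no single gene passed the test. On average over pairs, 34 of 40 (85%) were lower in SPOPmut, where 49.8% of all genes tested were, and the median difference was -0.20 on the log2(RPKM + 1) scale, against 0.00055 over all genes. Without S3 the median was -0.13, with 31 members lower, and without S3 and S5 it was -0.089, with 28 lower. The medians of all genes were then 0.0031 and 0.0079. Without S0 the member median was -0.18, with 37 of 40 (92.5%) lower. Over all genes, 45.5% were lower without S0, with a median of 0.011. In limma, with the pair as a block, 0 of 13600 genes (0%) reached an adjusted p under 0.05, and the smallest adjusted p of a member was 0.801, for Ddit3. At an unadjusted p under 0.05, 10 of 40 were lower and 0 were higher in SPOPmut; over all genes, 1.77% were lower and 3.82% higher. In all 6 pairs alike, 6 members were lower (Psph, Aldh18a1, Ddit3, Mars, Cars and Nars) and 0 were higher, against 1.68% and 3.62% of all genes. Any gene with 1 direction in all 6 pairs has an exact two-sided sign-flip p of 0.03125, the smallest that 6 pairs can give. For these 6 that p therefore only restates the shared direction, and it is not adjusted for the number of genes. The 10 members at an unadjusted p under 0.05 numbered 3 without pair S3, 4 without pair S5 and 0 without both. Over all genes, 241 were lower at that level with all pairs, 208 without S3, 224 without S5 and 160 without both. The count of members thus depends on these pairs, and each fit with pairs left out also has fewer values to test.

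**Figure D1:**
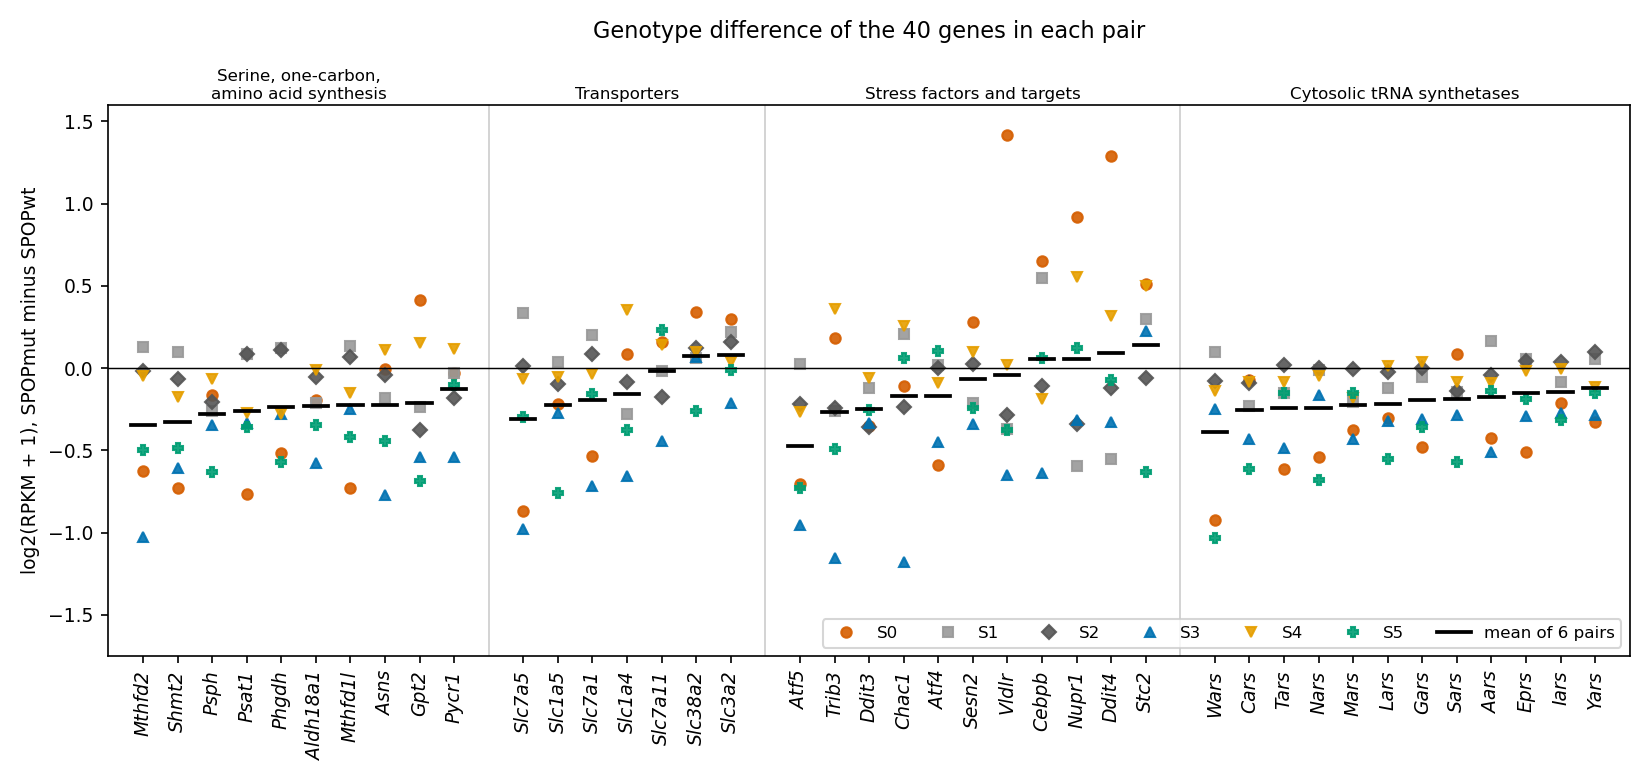
Difference in log2(RPKM + 1), SPOPmut minus SPOPwt, for each of the 40 genes (x axis, grouped by list and ordered by mean); each symbol is 1 pair and the black bar is the mean of 6 pairs. Most bars lie below 0, the S3 and S5 symbols are often the lowest, and the S0 symbols of Vldlr and Ddit4 stand at 1.42 and 1.29.

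All 10 synthesis enzymes were lower on average in SPOPmut, with a median difference of -0.23, and 3 of them at an unadjusted limma p under 0.05. Psph (chr5:129765558-129787449) encodes phosphoserine phosphatase, which completes serine synthesis. It ranged from 2.39 to 21.3 RPKM (median 7.27) in SPOPmut, against 3.30 to 33.6 (median 8.17) in SPOPwt. The ranges overlapped widely, with S5 highest and S3 lowest in both groups, yet each mutant lay below its own control. The mean difference was -0.28 (SE 0.0816, n = 6 pairs, limma adjusted p 0.881).

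Aldh18a1 (chr19:40550257-40588463), which starts proline synthesis from glutamate, also lay below its control in all 6 pairs. Its levels were 16.7 to 52.7 RPKM (median 41.7) in SPOPmut and 25.4 to 67.3 (median 47.3) in SPOPwt, a mean difference of -0.23 (SE 0.0877, limma adjusted p 0.881). The difference in S4 was small, at -0.0097, so the common direction rests there on almost equal values. Shmt2 (chr10:127517123-127522444) encodes the mitochondrial enzyme that turns serine into glycine and a one-carbon unit. It had 14.8 to 88.9 RPKM (median 73.6) in SPOPmut and 23.1 to 125 (median 80.6) in SPOPwt, and was lower in 5 of 6 pairs, with a mean difference of -0.33 (SE 0.121, limma adjusted p 0.881). S1 was the exception, at 77.4 RPKM in SPOPmut against 72.3 in SPOPwt.

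The entry enzymes of serine synthesis, Phgdh and Psat1, were lower in 4 of 6 pairs each, with mean differences of -0.24 and -0.26. Both were slightly higher in SPOPmut in S1 and S2. Mthfd2 and Mthfd1l, which carry the one-carbon unit onward in mitochondria, averaged -0.35 and -0.22, Asns, which makes asparagine, -0.22, and Gpt2, which makes alanine from pyruvate, -0.21. Pycr1, the last enzyme of proline synthesis, had the smallest difference of the list, at -0.13. None of these 7 was at an unadjusted limma p under 0.05. Exons of Psph overlap Cct6a and those of Shmt2 overlap Ndufa4l2 in the annotation, and the library kit does not mark strand, so reads could be shared between these neighbours.

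Of the 7 transporters, 5 were lower and 2 higher on average in SPOPmut, the median difference was -0.16, and none was at an unadjusted limma p under 0.05. Slc1a5, the main glutamine carrier, had 12.1 to 33.5 RPKM (median 20.8) in SPOPmut, against 14.8 to 57.4 (median 21.2) in SPOPwt. The medians nearly coincide, and the mean difference of -0.23 (SE 0.105) has its lowest value in S5, at -0.76. Slc7a5, the light chain of the leucine transporter LAT1, ranged from 12.3 to 83.1 RPKM (median 55.7) in SPOPmut and from 25.2 to 102 (median 56.7) in SPOPwt. Its pairs went both ways, from -0.98 in S3 and -0.87 in S0 to 0.33 in S1. Slc7a1, a carrier of arginine and lysine, had 4.65 to 48.5 RPKM (median 15.2) in SPOPmut and 8.29 to 54.1 (median 16.4) in SPOPwt, a mean difference of -0.19 (SE 0.127). Its pairs were also mixed, with 4 of 6 lower.

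Slc1a4, which carries alanine, serine and cysteine, averaged -0.16. Slc7a11, the cystine importer whose promoter window holds the motif 2 times, averaged -0.017 and was lower in 3 of 6 pairs; without S3 its mean was 0.068. Slc3a2, the heavy chain that Slc7a5 and Slc7a11 need at the membrane, and Slc38a2, a sodium-coupled carrier of small neutral amino acids, were the 2 that were higher on average, at 0.082 and 0.071. The levels of the partners thus differed between pairs in unlike ways: in S0, Slc7a5 was at 35.8 RPKM in SPOPmut against 66.1 in SPOPwt, whereas Slc3a2 was at 105 against 84.7.

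The stress list was the most mixed: 7 of 11 were lower and 4 higher on average in SPOPmut, with a median difference of -0.064 (0.035 without S3). Ddit3 (chr10:127290774-127296288) encodes CHOP, a factor linked to cell death under lasting stress. It had 11.4 to 20.3 RPKM (median 13.6) in SPOPmut and 12.5 to 26.2 (median 16.9) in SPOPwt. S0 was highest in both groups, the groups overlapped, and the mutant was lower in each pair, by a mean of -0.25 (SE 0.0668, limma adjusted p 0.801). Atf5 (chr7:44812256-44816658), a relative of Atf4 that is also under translational control, had 23.8 to 54.6 RPKM (median 48.5) in SPOPmut, against 47.1 to 91.0 (median 59.8) in SPOPwt. It was lower in 5 of 6 pairs, by a mean of -0.47 (SE 0.133, limma adjusted p 0.871), which was the largest mean difference among the 40 genes. S1 was the exception, at 49.4 RPKM in SPOPmut against 48.6 in SPOPwt.

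Ddit3 and Mars lie on opposite strands and their annotated 3′ ends share 68 bases, so without strand information reads there cannot be assigned to one of them. Exons of Atf5 likewise overlap Nup62 and Il4i1. Atf4 (chr15:80255184-80257541) had 174 to 261 RPKM (median 223) in SPOPmut and 216 to 310 (median 245) in SPOPwt. It was lower in 3 of 6 pairs, with a mean difference of -0.17 (SE 0.112, limma adjusted p 0.887), and the largest pair difference was -0.59 in S0. Trib3, a pseudokinase that restrains ATF4, averaged -0.27 and was lower in 4 of 6 pairs. Chac1, which degrades glutathione, averaged -0.17, with -1.18 in S3 and values between -0.24 and 0.25 in the other pairs; without S3 its mean was 0.035.

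Sesn2, which restrains the growth kinase mTORC1, and the lipoprotein receptor Vldlr averaged -0.064 and -0.041. Ddit4, another restraint on mTORC1, the chromatin-associated stress protein Nupr1, the factor Cebpb and the secreted glycoprotein Stc2 averaged 0.090, 0.057, 0.054 and 0.14. The averages of Cebpb, Nupr1 and Ddit4 were below 0 without pair S0. That of Cebpb was also below 0 without S1, and that of Nupr1 without S4. The average of Vldlr was above 0 without S1, S2, S3 or S5, so the directions of these genes change with the pairs included.

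All 12 synthetases were lower on average in SPOPmut, with a median difference of -0.21 and a range from -0.39 (Wars) to -0.12 (Yars), and 5 of them were at an unadjusted limma p under 0.05 (Mars, Cars, Lars, Tars and Wars). Each enzyme joins 1 amino acid, or 2 in the case of Eprs, to its tRNAs. Mars (chr10:127296221-127311786), for methionine, had 12.3 to 51.4 RPKM (median 28.0) in SPOPmut and 16.98 to 57.0 (median 33.9) in SPOPwt. It was lower in all 6 pairs, by a mean of -0.22 (SE 0.0748, limma adjusted p 0.881), with S2 almost level at -0.0026. Cars (chr7:143557230-143600090), for cysteine, had 10.4 to 44.8 RPKM (median 21.3) in SPOPmut and 14.3 to 68.95 (median 23.5) in SPOPwt. Its mean difference was -0.25 (SE 0.0894, limma adjusted p 0.881), from -0.070 in S0 to -0.61 in S5.

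Nars, for asparagine, had 61.2 to 185 RPKM (median 124) in SPOPmut and 68.6 to 297 (median 138) in SPOPwt, the highest median levels per length of the 12. It too was lower in all 6 pairs, by a mean of -0.24 (SE 0.113, limma adjusted p 0.887), but 3 of its pairs lay within 0.05 of 0. Lars, for leucine, had 15.8 to 61.8 RPKM (median 39.2) in SPOPmut and 19.9 to 91.0 (median 44.9) in SPOPwt, a mean difference of -0.22 (SE 0.0888, limma adjusted p 0.886). S4 was the exception, at 37.0 RPKM in SPOPmut against 36.7 in SPOPwt. Wars, for tryptophan, spread most between pairs, from -1.03 in S5 and -0.92 in S0 to 0.099 in S1. For the other synthetases, mean differences were -0.24 (Tars), -0.19 (Gars), -0.19 (Sars), -0.17 (Aars), -0.15 (Eprs), -0.14 (Iars) and -0.12 (Yars).

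**Figure D2:**
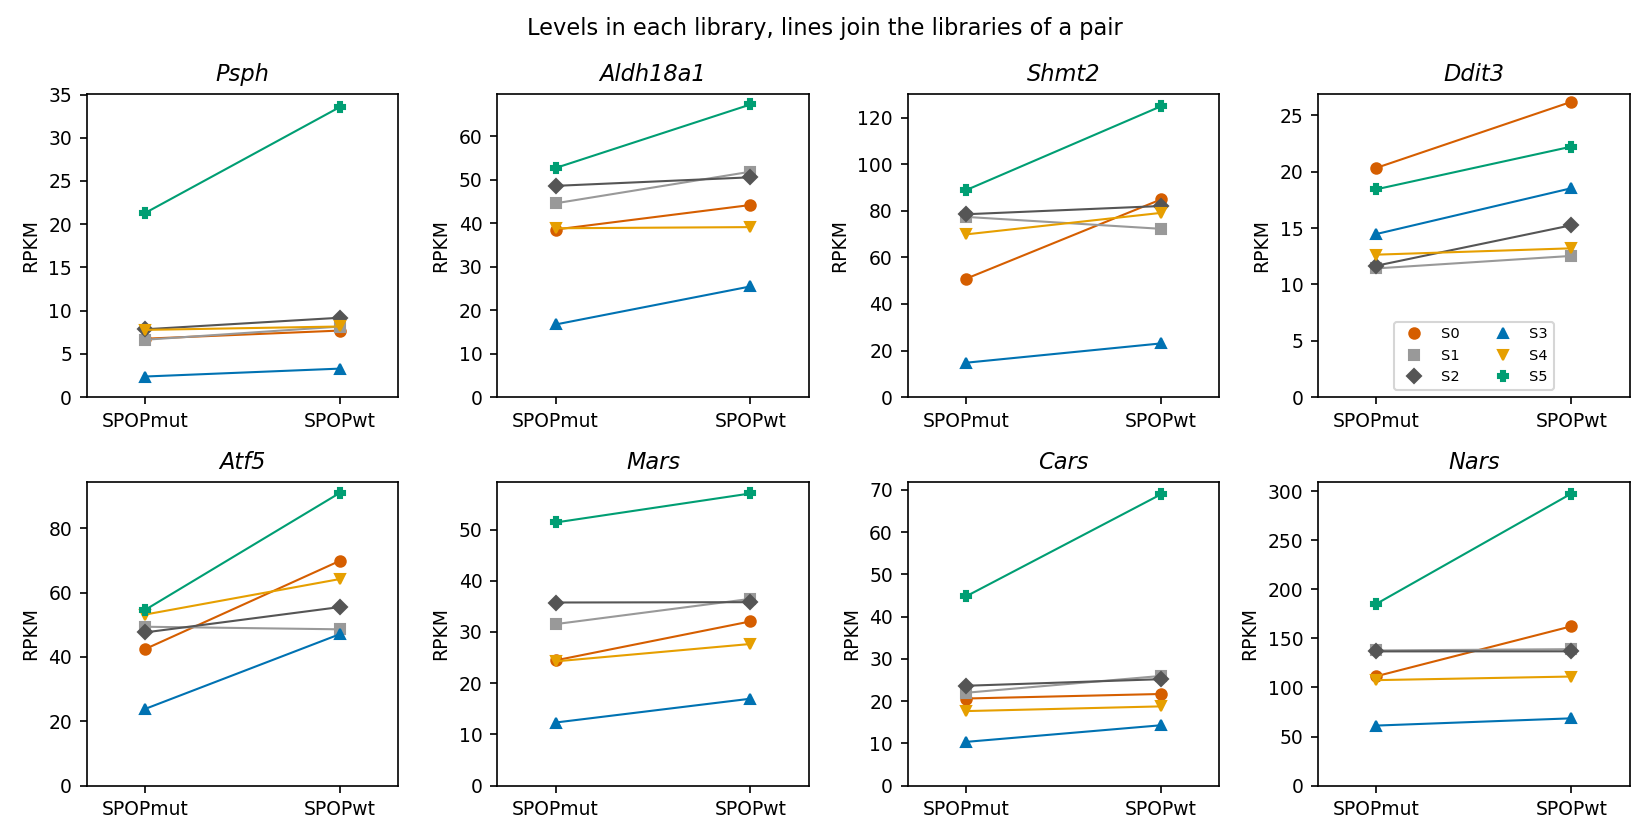
RPKM (y axis, from 0) of 8 members in SPOPmut and SPOPwt libraries; lines join the 2 libraries of a pair, and colour and symbol mark the pair. The pairs spread widely, as for Psph, where S3 lies at 2.39 (SPOPmut) and 3.30 (SPOPwt) and S5 at 21.3 and 33.6.

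The pairs did not contribute alike. In S3, 38 of 40 members were lower in SPOPmut (48.7% of all genes were), with a median of -0.39, and in S5 35 were (50.1% of all genes), with a median of -0.35. In S0 27 were lower (50.8% of all genes), with a median of -0.21. S1, S2 and S4 had medians nearer to 0, at -0.016, -0.050 and -0.041, where the medians of all genes were 0.048, 0.049 and -0.030. In S1 21 members were lower (41.1% of all genes), in S2 26 (34.3% of all genes) and in S4 24 (58% of all genes). The largest S3 differences were in Chac1 (-1.18), Trib3 (-1.15), Mthfd2 (-1.02), Slc7a5 (-0.98) and Atf5 (-0.95). Chac1, for example, was at 1.77 RPKM in the S3 SPOPmut library and 5.27 in its control. Beside these values, summed proliferation genes in S3 were 50.1 in SPOPmut and 33.2 in SPOPwt and summed endothelial markers 2.02 and 0.178; their part in the difference was not tested.

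Pair S0 split by role, but its libraries are paired by label alone. Their deviations from the group means hardly correlated across genes (0.0602, against 0.753 to 0.954 in S1 to S5). Its differences may thus not be those of a matched mutant and control. Synthesis enzymes had a median of -0.35 there and synthetases -0.40, while the stress list had a median of 0.28, with 7 of 11 members higher in SPOPmut. Ddit4 was at 45.8 RPKM in the S0 SPOPmut library against 18.1 in its control, Nupr1 at 30.6 against 15.7, and Vldlr at 19.4 against 6.64. Atf4 itself went the other way, at 205 against 310 RPKM. In the same pair, summed epithelial markers were 113 in SPOPmut and 22.7 in SPOPwt, and summed proliferation genes 156 and 278, and their part was not tested.

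**Figure D3:**
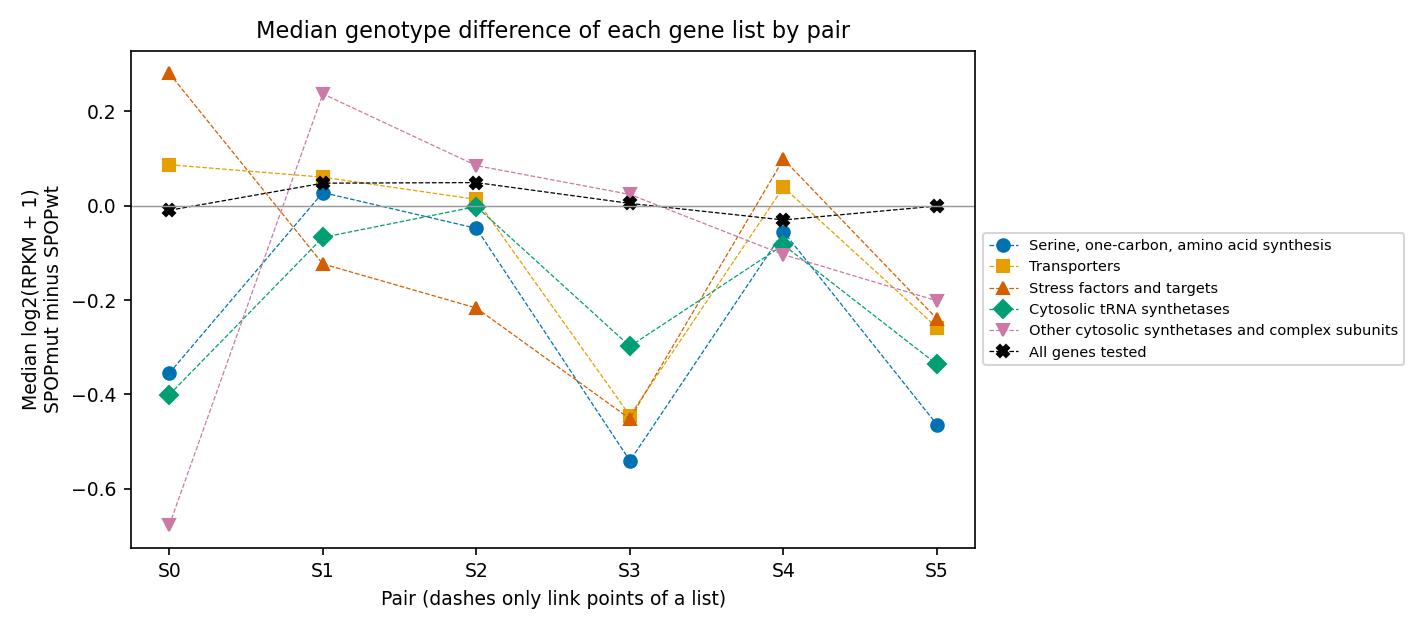
Median difference in log2(RPKM + 1), SPOPmut minus SPOPwt, of each gene list (y axis) in pairs S0 to S5 (x axis); black crosses are all 13600 genes tested. The 4 member lists lie below the crosses in S3 and S5, and in S0 the stress list lies at 0.28 while the synthetases lie at -0.40.

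The second question was how the epithelial-marker pair S5 stood against S0 to S4. A gene was counted as higher in S5 when both S5 libraries exceeded all 10 others and the mean of log2(RPKM + 1) was higher by at least 1. Since S5 was singled out in earlier results of these data and is 1 pair, values and counts are given with no test. By this rule 20 of 40 members (50%) were higher in S5 and 0 were lower, where 6.6% of all genes were higher and 13.7% lower. Without the size limit, 28 of 40 (70%) were above all 10 others, against 21.4% of all genes, and the median difference was 1.03, against -0.071 over all genes. The summed epithelial, mesenchymal and proliferation markers given above differ between S5 and S0 to S4 as well, and their part in these values was not tested.

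Stress targets held the largest differences, with 6 of 11 higher in S5. Ddit4 was at 323 (SPOPmut) and 339 (SPOPwt) RPKM in S5 and at 18.1 to 45.8 (median 27.3) in S0 to S4, so that the mean was 12.4 times as high. Chac1 was at 80.6 and 77.0 RPKM in S5, against 1.77 to 9.30 (median 6.73), or 12.2 times as high. In both genes S5 lay far beyond the other pairs in SPOPmut and SPOPwt libraries alike. Nupr1 was at 147 and 135 RPKM in S5, against 9.11 to 37.8 (median 20.6), Stc2 at 10.98 and 17.5 against 0.351 to 4.01 (median 0.980), and Trib3 at 48.0 and 67.7 against 3.36 to 17.6 (median 13.0). Sesn2 was at 19.3 and 23.0 RPKM, against 4.41 to 10.4 (median 7.45). The transcription factors of the list did not share these differences: Atf4 was at 233 and 216 RPKM in S5, within the 174 to 310 of S0 to S4, and Cebpb at 10.3 and 9.85, within 7.77 to 26.4. Ddit3 (18.4 and 22.2 against 11.4 to 26.2), Atf5 (54.6 and 91.0 against 23.8 to 69.9) and Vldlr (9.45 and 12.6 against 6.15 to 19.4) also overlapped the other pairs.

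Among the synthesis enzymes, 5 of 10 were higher in S5. Gpt2 was at 27.8 (SPOPmut) and 45.4 (SPOPwt) RPKM, against 2.23 to 5.63 (median 4.59), or 8.21 times as high on average. Psph was at 21.3 and 33.6 RPKM, against 2.39 to 9.19 (median 7.74), and Pycr1 at 7.46 and 8.07, against 0.991 to 3.18 (median 1.84). Asns, one of the 8 genes with the motif, was at 101 and 137 RPKM, against 9.92 to 50.7 (median 44.5). Mthfd2 was at 59.0 and 83.6 RPKM, against 5.21 to 39.2 (median 28.4). The steps of serine synthesis differed: Psph, the last, was higher, whereas Psat1 lay at 67.3 and 86.6 RPKM in S5, inside the 23.4 to 154 of the others, and Phgdh at 44.8 and 67.2, against 17.1 to 66.5.

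Transporters gave 5 of 7. Slc7a11 was at 12.3 (SPOPmut) and 10.3 (SPOPwt) RPKM in S5, against 0.655 to 2.93 (median 2.42) in S0 to S4, and Slc7a1 at 48.5 and 54.1, against 4.65 to 18.5 (median 14.4). Slc1a5 (33.5 and 57.4 RPKM against 12.1 to 29.0), Slc1a4 (17.5 and 23.0 against 3.98 to 11.2) and Slc7a5 (83.1 and 102 against 12.3 to 66.1) were about 2 times as high on average. Slc38a2, at 187 and 223 RPKM against 78.2 to 147, was above all others with a log2 difference of 0.98, just short of the limit of 1. Slc3a2 was at 124 and 125 RPKM, where the S3 control also reached 125.

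Synthetases gave 4 of 12: Cars (44.8 and 68.95 RPKM in S5 against 10.4 to 25.97), Lars (61.8 and 91.0 against 15.8 to 45.2), Nars (185 and 297 against 61.2 to 162) and Mars (51.4 and 57.0 against 12.3 to 36.5). The log2 difference of Mars was 1.01, just past the limit. A further 5 synthetases were above all other libraries by less than that limit. Tars and Eprs were not above them, at 76.3 and 84.8 RPKM (30.6 to 107 in S0 to S4) and at 12.6 and 14.5 RPKM (7.06 to 15.8). Wars was higher by 1.15 on the log2 scale, but its S5 mutant, at 29.0 RPKM, lay below the S0 control, at 33.7. Of the 8 genes whose promoter window holds the motif, 5 (Asns, Pycr1, Slc7a11, Nupr1 and Chac1) were among the 20 higher in S5, and of the 26 windows without it, 10 were. The rest of the 20, Slc7a5, Slc1a5, Cars, Lars and Nars, had no window to search, nor had Wars. These counts thus leave out genes that were mostly higher in S5, and a link between motif and level was not tested.

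**Figure D4:**
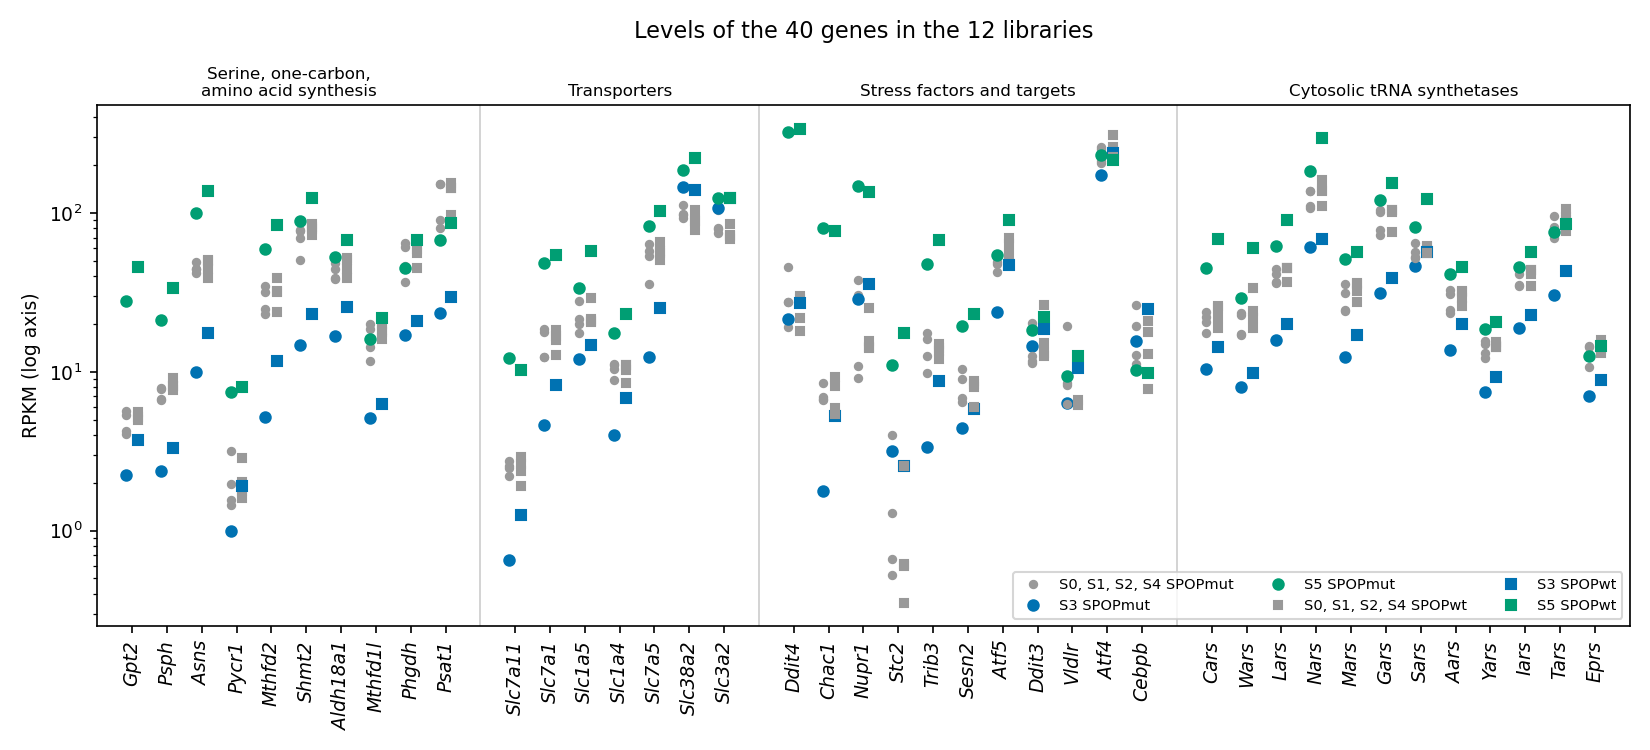
RPKM on a log axis of the 40 genes in all 12 libraries, circles for SPOPmut and squares for SPOPwt, with S5 in green, S3 in blue and the other pairs in grey. The green symbols of Ddit4 (323 and 339) and Chac1 (80.6 and 77.0) lie far above the rest, while the blue symbols of most synthesis enzymes and synthetases lie below it.

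The opposite end was held by S3. Both S3 libraries lay below all 8 libraries of S0, S1, S2 and S4 for 28 of 40 members, where 27.6% of all genes did, and above them for 2, Slc3a2 and Slc38a2, where 22.5% of all genes did. This held for 9 of 10 synthesis enzymes, 11 of 12 synthetases and 5 of 7 transporters, but 3 of 11 stress genes. It was not particular to the members: other gene lists, described below, were low in S3 as well. Psat1 was at 23.4 (SPOPmut) and 29.7 (SPOPwt) RPKM in S3, against 80.3 to 154 (median 144) in the 8 others, a mean of 0.209 times theirs. Shmt2 was at 14.8 and 23.1 RPKM, against 50.8 to 84.9 (median 78.0). Gars was at 31.3 and 38.9 RPKM, against 73.1 to 105 (median 102). In 22 of 40 members S5 was above all 10 others and S3 below the 8 others, where 4.07% of all genes were. The low summed proliferation genes of S3 and S5 (21.1 to 50.1 in these 4 libraries) stand beside high values of these members in S5 and low values in S3, and their part was not tested.

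Other genes of the pathway showed which of these patterns were shared. Among 14 eIF2alpha kinases, phosphatase subunits and eIF2 and eIF2B subunits, 9 were lower and 5 higher on average in SPOPmut, with 0 called. Without S0, 8 were lower and 6 higher, with a median of -0.018, where 45.5% of all genes were lower. Eif2ak3, the kinase PERK, had 5.48 to 10.8 RPKM (median 5.79) in SPOPmut and 4.86 to 7.48 (median 5.29) in SPOPwt. It was higher in 6 of 6 pairs, by a mean of 0.18 (SE 0.0763, limma adjusted p 0.886). Eif2b5, a subunit of the exchange factor eIF2B, averaged -0.17. In S5, 2 of the 14 were higher by the rule above, Ppp1r15a and Eif2s2, and 0 were lower, with a median log2 difference of 0.21. Ppp1r15a, which brings a phosphatase to eIF2alpha and so reverses the response, was at 52.2 (SPOPmut) and 65.5 (SPOPwt) RPKM in S5, against 6.89 to 14.0 in S0 to S4.

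Of 20 other ATF4 targets, 16 were kept, of which 10 were lower and 6 higher on average in SPOPmut. Without S0, 12 were lower and 4 higher, where 45.5% of all genes were lower. Ero1l, an oxidase of the endoplasmic reticulum, had 13.7 to 26.3 RPKM (median 22.6) in SPOPmut and 19.2 to 42.4 (median 26.2) in SPOPwt. It was lower in 6 of 6 pairs, by a mean of -0.34 (SE 0.0852, limma adjusted p 0.769), and Jdp2, a repressor of the AP-1 family, averaged -0.19. Cebpg, a factor that pairs with ATF4, was higher in 6 of 6 pairs, by a mean of 0.12 (SE 0.0644, limma adjusted p 0.887). In S5, 6 of the 16 were higher by the rule above (Atf3, Cth, Gdf15, Slc6a9, Aldh1l2 and Lonp1) and 1 was lower (Slc38a1). Gdf15, a secreted stress hormone, was at 16.2 (SPOPmut) and 14.4 (SPOPwt) RPKM in S5, against 0.565 to 3.12, and Aldh1l2, a mitochondrial folate enzyme, at 26.5 and 54.3, against 2.81 to 14.0. Slc38a1, a glutamine carrier, was at 0.0893 and 0.131 RPKM, against 8.41 to 11.6.

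The remaining cytosolic synthetases and subunits of their complex, 11 genes, were all lower on average in SPOPmut, with a median of -0.12. This count rests on S0, where 10 were lower with a median of -0.68; 1 of 11 was lower in S1, 0 in S2 and 5 in S3. Leaving S0 out gave 5 lower and 6 higher, where 45.5% of all genes were lower. In S3 12 of 12 members were lower. The smallest p was that of Vars (mean difference -0.17, limma adjusted p 0.887), followed by Farsb (-0.24). In S5 0 of 11 were higher by the rule, against 4 of 12 members. No test of that difference between the lists was run. In S3, on the other hand, both libraries lay below the 8 others for 9 of 11. Of 17 mitochondrial synthetases, 14 were lower on average in SPOPmut, and 13 were without S0, with a median of -0.095. The median of all genes without S0 was 0.011. Tars2 had the smallest p (-0.23, limma adjusted p 0.881). Tars2, Iars2 and Nars2 were lower in 6 of 6 pairs.

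**Figure D5:**
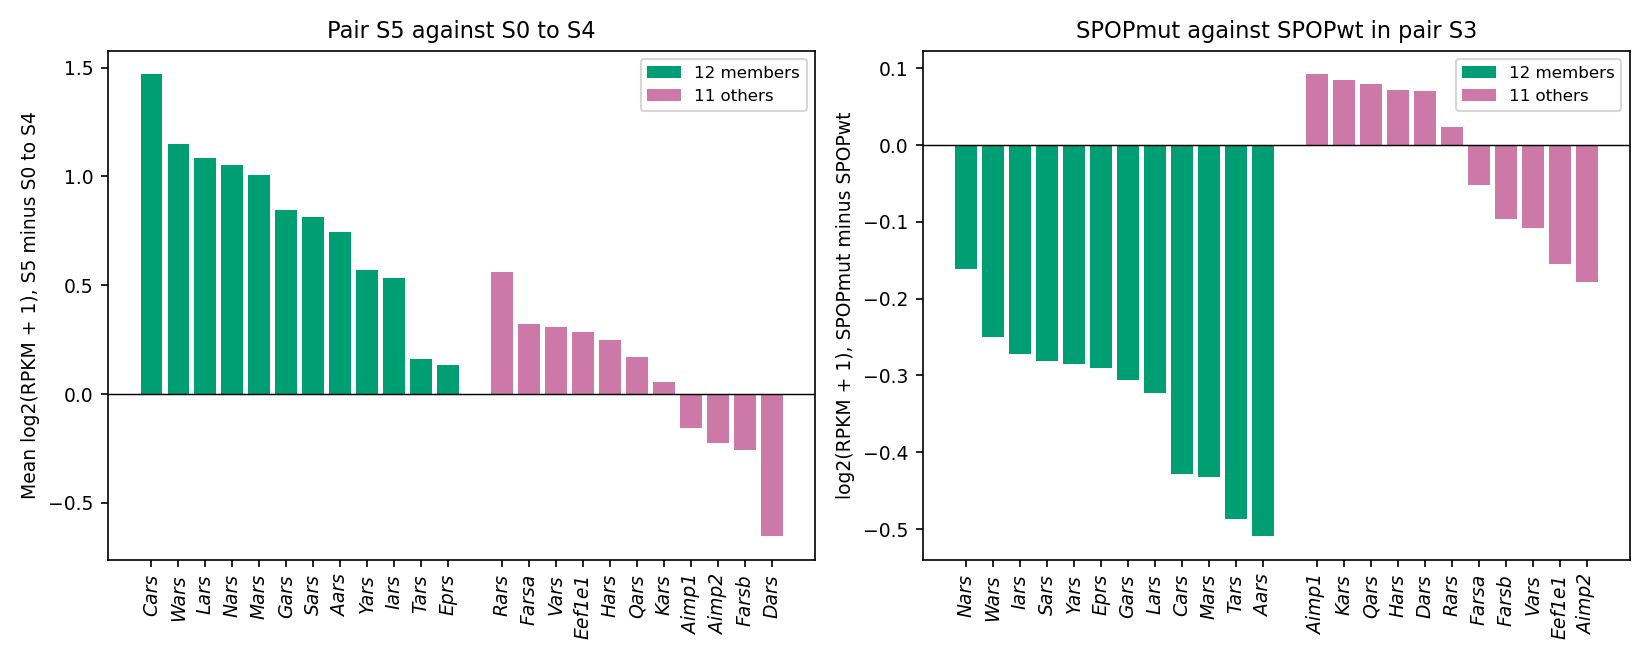
Difference in log2(RPKM + 1) of 12 cytosolic synthetases among the 40 genes (green) and 11 other cytosolic synthetases and complex subunits (pink), for S5 minus S0 to S4 (left) and SPOPmut minus SPOPwt in pair S3 (right). Bars are single differences with no error, and in S3 all 12 green bars lie below 0, against 5 of 11 pink bars.

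Of 17 further one-carbon and folate genes, 14 were kept and 13 were lower on average in SPOPmut, with a median of -0.13. The median in S0 was -0.66, and without S0 9 of 14 were lower (45.5% of all genes were), with a median of -0.040. Ahcy and Tyms, which handle S-adenosylhomocysteine and thymidylate, had the smallest p and averaged -0.33 and -0.23 (limma adjusted p 0.887 for both). Chaperones and quality-control genes of the endoplasmic reticulum, which answer to ATF6 and XBP1, were lower on average in 18 of 20, with a median of -0.11. The median in S0 was -0.62, and without S0 11 of 20 were lower (45.5% of all genes were), with a median of -0.042. Sel1l (-0.18, limma adjusted p 0.886) and Hyou1 (-0.24, limma adjusted p 0.887) were lower in 6 of 6 pairs. In S5 these 20 genes went the other way from the ATF4 targets: 13 were lower and 1, Ern1, was higher by the rule. Hspa5, the main chaperone of the list, was at 81.7 (SPOPmut) and 79.6 (SPOPwt) RPKM in S5, against 113 to 552 (median 362) in S0 to S4. In S3 these genes went the same way as the members, with both libraries below the 8 others for 17 of 20. That also held for 8 of 14 eIF2alpha kinases, phosphatase subunits and eIF2 and eIF2B subunits and for 8 of 14 further one-carbon and folate genes. For other ATF4 targets it held for 7 of 16, and for mitochondrial synthetases for 7 of 17.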

How the data were processed

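RNA was sequenced from 6 SPOPmut and 6 SPOPwt prostate organoid libraries as paired 51 bp reads with an unstranded TruSeq kit, per the labels' protocols. The authors deposited RPKM per gene name, per the file names, and the submitters' processing notes name STAR 2.4.0j, mm10 and GRCm38. How reads were counted, against which annotation, and what was done with multi-mapping reads is not given in the sources used here. Being relative, RPKM moves with highly expressed genes, of which the top 10 took 7.99 to 14.7% of the summed RPKM.

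Exon lengths of GENCODE M21 and the steps between low values gave an estimate of depth (91.0% of names). At those steps 35.5 to 40.3% of low values lay within 0.04 of a whole read, where 8% would by chance, so whole reads were not recovered and no count test or counting interval is given. No 2 libraries were merged: the lowest median chi-square of approximate reads was 1.20 (S1 and S2 SPOPwt), against 0.455 from sampling alone. The S1 and S2 SPOPmut libraries were also the closest of their group (2.07), and all other medians were at least 7.90. S1 and S2 were still counted as separate pairs, so p-values and counts of pairs may rest on fewer than 6 independent pairs.

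Values were transformed to log2(RPKM + 1), which understates changes of low genes. The 13600 genes with an RPKM of 1 or higher in 6 or more of 12 libraries were kept. limma 3.58.1 in R 4.3.3 fitted pair and genotype with a trended, robust prior, and its two-sided p was Benjamini-Hochberg adjusted over all 13600 genes. Single genes were also tested by an exact two-sided sign-flip over 6 pairs. The fit was also run on simulated data, with independent noise of the same size in all libraries for each gene. That run cannot show how the fit behaves where pairs differ in spread or resemble each other, as here. Other steps used numpy 2.4.6, pandas 2.3.3, matplotlib 3.10.9 and scipy 1.17.1 under Python 3.11.15. Pairing comes from the labels, which speak of pairs; same-numbered libraries deviated from their group means together in S1 to S5 (correlations across genes of 0.753 to 0.954) but hardly in S0 (0.0602).

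The members and lists were chosen with earlier results of these data known, so lists are described by counts and medians with no test. Named in full were the 3 members of smallest p in each list, those with 1 direction in all 6 pairs, those past the S5 limit and, in other lists, the 2 of smallest p, of which 1 gene, like 1 promoter stretch, is not reported here. Marker lists covered epithelial, mesenchymal, proliferating, immune and endothelial cells. Promoter windows are those of RefSeq (GRCm38.p6), and gene coordinates those of GENCODE M21 on GRCm38. The alternatives tried were no pair block, other pseudocounts, filters, scalings, priors and weights, and left-out pairs.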

Additional observations from a re-analysis of the deposited data

Results flagged for a closer look

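For each of the 40 genes the level in SPOPmut, the level in SPOPwt and the pair difference were examined for a value far from the 5 others of its group, by Dixon's ratio at its 95% critical value. Of 120 such series 27 stood out, or 22.5%; chance flags about 1 in 20 groups, and the same rule marked 17.5% of the series of all 13600 genes. The 120 series share the same 12 libraries. The 27 were 9 SPOPmut levels, 16 SPOPwt levels and 2 differences. Pair S5 accounted for 13, S3 for 12 and S0 for 2.

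S5 was the far value in the stress list for Chac1 (80.6 RPKM in SPOPmut, others at most 8.55, and 77.0 in SPOPwt, others at most 9.30) and Ddit4 (323 in SPOPmut, others at most 45.8, and 339 in SPOPwt, others at most 30.1). It was also far in the SPOPwt levels of Trib3 (67.7 RPKM), Sesn2 (23.0) and Stc2 (17.5). Of the synthesis enzymes, Gpt2 stood out in both groups (27.8 RPKM in SPOPmut and 45.4 in SPOPwt), and Pycr1 in SPOPwt (8.07). The remaining S5 values were SPOPwt levels of the transporter Slc7a11 (10.3 RPKM) and of the synthetases Cars (68.95) and Sars (122).

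S3 was the far value, always the lowest, for Shmt2 (14.8 RPKM in SPOPmut and 23.1 in SPOPwt) and Tars (30.6 in SPOPmut and 43.3 in SPOPwt) in both groups. In SPOPmut it was also the lowest for Aldh18a1 (16.7 RPKM), Atf5 (23.8) and Iars (18.8), and in SPOPwt for Phgdh (21.0), Psat1 (29.7), Mthfd1l (6.29) and Eprs (8.85). The S3 difference of Chac1, SPOPmut minus SPOPwt, was -1.18 on the log2(RPKM + 1) scale, with the others from -0.24 to 0.25.

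S0 was the far value for Vldlr, whose SPOPmut level was 19.4 RPKM with the others from 6.23 to 9.45, and whose difference was 1.42 with the others from -0.65 to 0.017.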

How the results depend on the processing

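With no replicate block, that is without the pairing, the mean differences are the same and the number of members lower at an unadjusted limma p under 0.05 was 0, against 10 with it; over all genes 12 were then lower and 17 higher, against 241 and 520. That number was 6 without S0 and S5, with 1 member higher, 0 without S3 and S5 (a choice made after seeing the data), and 3 to 14 with single pairs left out, with 0 to 1 higher. Over all genes, 514 were lower without S0 and S5, 160 without S3 and S5, and 139 to 429 with single pairs left out. With pairs weighted by their spread, limma called 9 genes, none of them a member (smallest adjusted p 0.0704). In the other settings 0 genes were called. Quantile normalization gave 353 lower and 473 higher genes and median scaling 307 and 432 at an unadjusted p under 0.05, with 15 and 12 members lower.

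Cebpb, Nupr1 and Ddit4 changed sign with pair weights (-0.10, -0.21 and -0.13) and without S0 and S5 (-0.097, -0.17 and -0.17). Without S3 and S5, Slc7a11 (0.027), Slc1a4 (0.020), Trib3 (0.011), Chac1 (0.028), Sesn2 (0.048) and Vldlr (0.20) did, and the medians of transporters (0.020) and stress genes (0.048) lay above 0. With single pairs left out, the ranges that crossed 0 were -0.065 to 0.19 (Cebpb), -0.12 to 0.19 (Nupr1), -0.15 to 0.22 (Ddit4), -0.33 to 0.081 (Vldlr), -0.068 to 0.068 (Slc7a11) and -0.25 to 0.035 (Chac1). Medians then ran from -0.29 to -0.20 for synthesis enzymes, -0.22 to -0.059 for transporters, -0.15 to 0.035 for stress genes (above 0 without S3), -0.24 to -0.16 for synthetases and -0.24 to -0.13 for all 40, of which 31 to 37 were lower on average. The cause of these changes was not tested. Higher in S5 were 15 to 21 members with single pairs left out (15 without S3) and 17 to 24 under the other settings, with 0 lower throughout.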
